A study of Rattus norvegicus with 36 samples.

Results

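The dose response of liver transcripts to hexabromocyclododecane (HBCD), a brominated flame retardant, was described over all 6 dose groups at once. Every array was used, 36 of 36, and every probe set that was not a control, 31042 of 31099. Arrays were ordered by the dose in their titles, and the shape of each profile was read from the 6 group means. Male Sprague Dawley rats of the Harlan stock, 7 weeks of age at the start, had received HBCD in corn oil by gavage at 5 ml/kg on 5 consecutive days. The doses were 0.06 and 0.641 mg/kg at the low end, 6.41 mg/kg in the middle, and 64.1 and 641 mg/kg at the upper end, and the controls received corn oil alone. Left liver lobe was taken 1 day after the last dose, and each group had 6 arrays. Replicates are numbered in the labels without a statement that different animals were used, so the p-values refer to the variation among arrays of a group, part of which may be technical. Levels are log2 values per probe set throughout.

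The nuclear receptors CAR and PXR sense foreign compounds in hepatocytes and switch on monooxygenases, conjugating enzymes and transporters that clear them. NRF2 is a transcription factor that is released under oxidative or electrophilic stress and drives genes for glutathione, thioredoxin and reducing power. Enzyme induction of the first kind is a well known response of rat liver to brominated flame retardants, and a receptor response usually rises over a range of doses before it saturates.

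The labelled tissue carried its defining markers. The mean level of 11 measured hepatocyte markers lay between 13.42 and 13.49 in the group means, against 4.39 to 4.49 for 7 markers of exocrine pancreas. None of the 68 markers measured of 10 cell types passed the test among the 6 groups, which 1.29% of all symbols passed. The T cell marker Cd8a passed the falling trend over dose (5.11 ± 0.33 at vehicle and 4.45 ± 0.247 at 641 mg/kg), where 0.64% of all symbols did. The 9 macrophage markers averaged 8.56 ± 0.138 (SD, n = 6) at vehicle, 8.09 ± 0.409 at 64.1 mg/kg and 8.45 ± 0.202 at 641 mg/kg, so the second highest dose had the lowest level. Replicates 2, 3 and 4 of the 64.1 mg/kg group were the lowest of that group, at 7.86, 7.57 and 7.75. In bulk tissue, fewer cells of a type and less RNA per cell cannot be told apart. For RNA quality, the 3-prime minus 5-prime difference had group means between -0.0255 and 0.00562 for Gapdh and between 1.14 and 1.22 for beta-actin. For hexokinase they ran from 1.22 at 0.641 to 1.42 at 6.41 mg/kg, with 1.38 at vehicle, 1.25 at 64.1 and 1.29 at 641 mg/kg, and their part in the results was not tested.

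By their group means, most of the probe sets that responded were graded under the rule given below, with the larger part of the change between 64.1 and 641 mg/kg. For 120 of 240, a 95% interval for the part of the change reached at 64.1 mg/kg excluded 0. The others were not set apart from a step by that measure. A moderated F test over the 6 groups called 240 of 31042 probe sets (0.773%), at an adjusted p under 0.05. Of these, 173 had their largest change upward (0.557% of all probe sets) and 67 downward (0.216%). Without replicate 2 of 641 mg/kg the count was 154. Limited to vehicle and the 4 doses below 641 mg/kg, the same test called 6 probe sets (0.0193%). This count was 3 without replicate 4 or without replicate 5 of 64.1 mg/kg and 10 without replicate 1 of vehicle. It was 1 without replicates 2, 3 and 4 of 64.1 mg/kg together. These are the arrays of low macrophage marker level, and leaving them out also leaves fewer arrays at that dose. The part of either in the result was not tested. Limited to vehicle and the 3 doses below 64.1 mg/kg, the F test called 0. An unadjusted p under 0.05 was found for 1206 of 31042 probe sets, less than the share of 0.05 that chance alone would give.

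The linear trend over dose ranks was called for 418 probe sets (1.35%), 280 rising (0.902%) and 138 falling (0.445%), the latter 91 without replicate 5 of 641 mg/kg. A departure from a straight line over ranks was called for 27 (0.087%), and all 27 were among the 240. Without replicate 2 of 641 mg/kg it was called for 15. In 24 of the 27 the largest difference between neighbouring groups was that between 64.1 and 641 mg/kg. Tested on its own, this uppermost difference was called for 75 probe sets (0.242%), 59 higher (0.19%) and 16 lower (0.0515%) at 641 mg/kg. That count was 32 without replicate 2 of 641 mg/kg, 40 without replicate 5 of 641 mg/kg, and 43 and 39 without replicates 3 and 6 of 64.1 mg/kg. Between 6.41 and 64.1 mg/kg it was called for 1 probe set (0.00322%), that of the monooxygenase Cyp3a23-3a1, and for 2 without replicate 2 of 0.06 mg/kg or without replicate 1 or 2 of 6.41 mg/kg. The 3 differences between lower neighbours were called for 0 probe sets by limma, with 1293, 1239 and 1537 at an unadjusted p under 0.05. Each of these counts is less than the share of 0.05 of all probe sets that chance alone would give.

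Shape classes were defined from the difference of each dose mean from the vehicle mean, divided by the largest such difference of that probe set. Profiles were non-monotone where this ratio was under 0.5 at 641 mg/kg or under -0.5 anywhere. The others were a step at the top dose where none of the 4 lower doses reached 0.25, graded where the highest of them lay from 0.25 to under 0.75, and a plateau from 0.75 on. By this rule 178 of the 240 profiles were graded (74.2%), 30 were steps (12.5%), 13 were plateaus (5.42%) and 19 were non-monotone (7.92%). Without replicate 2 of 641 mg/kg there were 15 steps and 5 non-monotone profiles, and without replicate 2 of 64.1 mg/kg there were 8 plateaus. Non-monotone profiles numbered 11, 10 and 5 without replicates 1, 3 and 5 of 641 mg/kg. Over all 31042 probe sets, most of which were not called, the same rule gave 13.5%, 1.8%, 26.7% and 57.9%. The called set is not a random draw from them, because the test favours large changes, and no test was run between the 2 distributions.

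**Figure D1:**
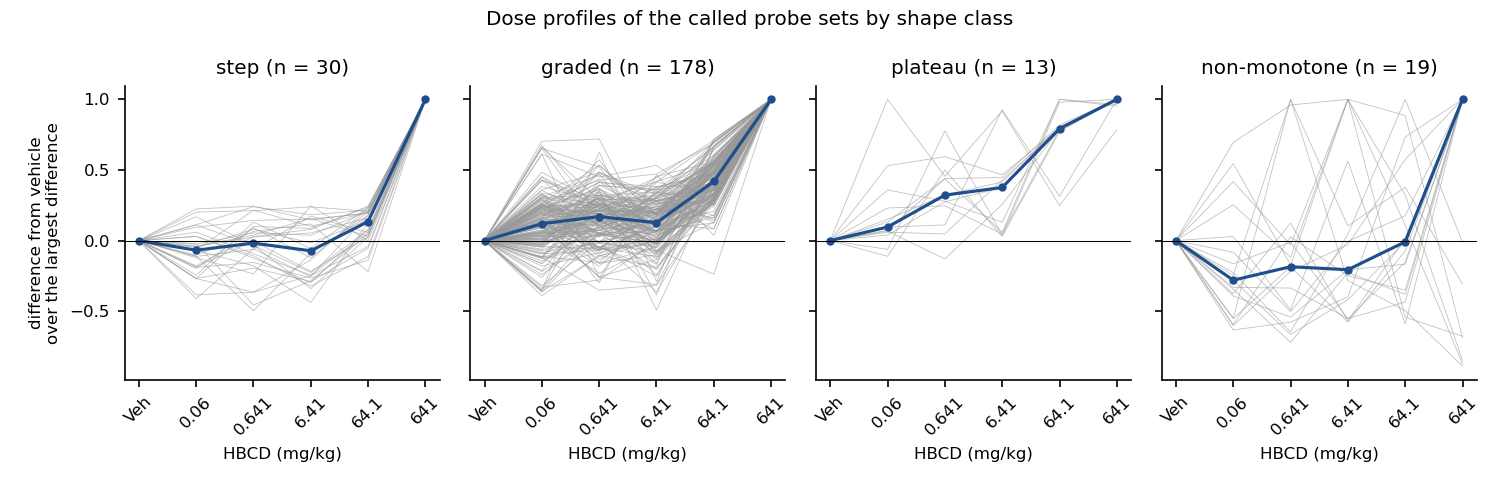
Dose profiles of the 240 called probe sets in their 4 shape classes, with dose in mg/kg on the x axis and, on the y axis, the difference from the vehicle mean divided by the largest such difference of the probe set. Grey lines are single probe sets and the blue line with points is the median. The graded class, with 178 profiles, bends upward between 64.1 and 641 mg/kg. The median of the 30 step profiles stays near 0 up to 64.1 mg/kg, while single ones dip below 0, such as Elovl5 with -0.456 at 0.641 mg/kg.

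The graded class held the large changes. Its median fold at 641 mg/kg was 1.36, and 19 of its probe sets reached 2-fold in either direction, against 0 in each of the other classes. In 150 of the 178 graded profiles the largest value below the top dose was the one at 64.1 mg/kg. Median folds at 641 mg/kg were 1.27 for steps, 1.23 for plateaus and 1.18 for non-monotone profiles. The non-monotone profiles also had the lowest median level, 6.55, against 8.20, 8.92 and 9.42 for steps, graded profiles and plateaus. Group means stood in strict order over all 6 groups in 25 of the 240 probe sets (10.4%), against 0.528% of all probe sets.

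The arrays showed the same concentration at the top of the dose range. All 6 arrays at 641 mg/kg lay outside the range of the vehicle arrays in 176 of the 240 probe sets (73.3%), where 1.71% of all probe sets did so. At 64.1 mg/kg this held for 27 (11.2%, against 0.351% of all). At 6.41, 0.641 and 0.06 mg/kg it held for 2 each (0.833%, against 0.18%, 0.151% and 0.135% of all). These probe sets were called on the same arrays, so the shares describe the called set and are no separate test.

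A continuous measure of shape was the share of the change at 641 mg/kg that was reached at 64.1 mg/kg, on the log2 scale. Its median over the 240 probe sets was 0.378, with quartiles at 0.254 and 0.528. A Fieller 95% interval could be given for 236 of them. It excluded 0 in 120, excluded 1 in 205 and excluded both in 93. All 93 that excluded both were graded. The class rule uses the same ratio at 64.1 mg/kg, so agreement of share and class is in part built in and is no separate test. Of the 178 graded profiles, 109 had an interval above 0 and 161 an interval below 1, so for the other graded profiles this measure does not set them apart from a step, from a plateau or from both. The intervals of all 30 steps included 0 and lay below 1. Among the 13 plateaus, 11 intervals included 1 and excluded 0. Numerator and denominator share the vehicle arrays, which the intervals take into account.

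Targets of CAR and PXR rose over both upper doses, and they held every call made below the top dose. Of 17 measured members 15 were called, all higher, against 183 of 14217 symbols in all (1.29%). Of these, 12 were graded, 3 were plateaus and none was a step. The median difference from vehicle over the 17 members was 0.03, 0.18, 0.11, 0.47 and 0.92 on the log2 scale from the lowest dose to the highest, against 0.00 at 64.1 and -0.01 at 641 mg/kg over all symbols. The 2 members not called were Alas1, the first enzyme of heme synthesis, and Gadd45b, a stress gene, which lay 0.987-fold and 1.03-fold from vehicle at 641 mg/kg. The 6 probe sets called below 641 mg/kg belonged to Cyp3a23-3a1, Ugt2b1, Ces2c, Cyp3a18 and Aldh1a1 and to 1 probe set whose annotation gives Cyp2b1 together with Cyp2b2. All of these genes are in this list, which was drawn up with earlier results of these data known.

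Cyp3a23-3a1 encodes a monooxygenase with a broad range of substrates and is a standard target of PXR. Its upstream window is shown because it holds a direct repeat of the kind that PXR binds, and so does that of its neighbour Cyp3a2, which had another shape. Both stretches are from RefSeq, build GRCr8, and lie on the minus strand, Cyp3a23-3a1 at chr12:14398893-14398987 and Cyp3a2 at chr12:14343934-14344028. They are read 5′ to 3′ in the direction of the gene, with the repeat in capitals.
Cyp3a23-3a1: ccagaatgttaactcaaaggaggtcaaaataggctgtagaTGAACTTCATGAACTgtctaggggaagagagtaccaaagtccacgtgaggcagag
Cyp3a2: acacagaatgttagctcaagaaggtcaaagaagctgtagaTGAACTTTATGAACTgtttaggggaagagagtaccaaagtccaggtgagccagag
The repeat was searched as 2 copies of the letters AGTTCA in the same direction with any 3 bases between them, on both strands, in the 250 bases before the start of each gene. Here it lies on the opposite strand, so each copy reads TGAACT. It was found in 2 of 33469 windows (0.00598%), those of these 2 genes. Only exact copies of these letters were counted, and repeats with any other letter were not. The share therefore does not show how rare repeats of this kind are. The same repeat with 4 bases between was found in 4 windows (0.012%) and in 0 of the 108 called upward genes that had a window. An everted repeat, TGAACT and then AGTTCA with 6 bases between, was found in 0 windows. A match describes the letters of a window and does not show binding.

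The 6 vehicle arrays of Cyp3a23-3a1 ran from 12.12 to 12.60 with a median of 12.44. At 0.06, 0.641 and 6.41 mg/kg the medians were 12.42, 12.50 and 12.66, and the arrays of these groups, from 12.32 to 12.85, overlapped those of vehicle. At 64.1 mg/kg they ran from 13.17 to 13.37 with a median of 13.25, and at 641 mg/kg from 13.62 to 13.77 with a median of 13.67. All 12 arrays of the upper doses were above all vehicle arrays, and the 2 upper groups did not overlap each other. The rise was 1.82-fold at 64.1 and 2.45-fold at 641 mg/kg, so a share of 0.671 (95% interval 0.571 to 0.776) was reached at the lower of these doses. The differences at 64.1 against 6.41 (limma adjusted p = 3.72e-06) and at 641 against 64.1 mg/kg (adjusted p = 0.0027) both passed. The profile departed from a straight line over ranks (adjusted p = 2.92e-05) and differed among the groups below 641 mg/kg (adjusted p = 4.28e-09).

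Cyp3a2, a male-predominant monooxygenase, was near the top of the scale, with group means of 13.55 at vehicle, 13.69 at 64.1 and 13.72 at 641 mg/kg. It rose 1.10-fold and 1.13-fold at those doses (limma adjusted p = 0.00463 among the 6 groups), a share of 0.788 (0.403 to 1.31). It was classed as a plateau. Whether a level this high still follows the amount of RNA evenly was not tested.

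Ugt2b1, a glucuronosyltransferase, ran from 11.37 to 12.09 at vehicle with a median of 11.88. Its medians then rose from 11.95 to 12.12 and 12.16 over the 3 lowest doses, within overlapping ranges. At 64.1 mg/kg the arrays ran from 12.50 to 12.71, and at 641 mg/kg from 12.74 to 13.04. Both upper groups lay above all vehicle arrays. The share was 0.699 (0.55 to 0.859), and the departure from a straight line was not called (adjusted p = 0.576).

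Ces2c, a carboxylesterase, also had group means in strict order, 6.87 ± 0.315 at vehicle, then 7.13 ± 0.239, 7.27 ± 0.101, 7.38 ± 0.252, 7.93 ± 0.279 and 9.01 ± 0.239 (SD, n = 6). The lowest array at 64.1 mg/kg, 7.60, was above the highest vehicle array, 7.44, and the arrays at 641 mg/kg started at 8.67. Its share was 0.492 (0.38 to 0.603), and the top difference passed (adjusted p = 2.4e-05). The strict order over the 3 lowest doses is a description, since no probe set was called below 64.1 mg/kg.

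Cyp3a18, another monooxygenase of male rat liver, reached 1.47-fold at 64.1 and 1.99-fold at 641 mg/kg, a share of 0.556 (0.394 to 0.722). Aldh1a1, a retinaldehyde dehydrogenase, reached 1.67-fold and 2.48-fold, a share of 0.562 (0.41 to 0.717). The bile acid and drug uptake carrier Slco1a4 reached 1.38-fold and 1.89-fold, with a share of 0.508 (0.32 to 0.697) and the same share, 0.508, in its second probe set. Its arrays ran from 12.04 to 12.26 at 64.1 and from 12.54 to 12.67 at 641 mg/kg, and the lowest of these lay above the highest vehicle array.

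The probe set shared by Cyp2b1 and Cyp2b2, the classical CAR targets of rat liver, was named after its values were seen, since a probe set with 2 symbols was assigned to no gene. Its means were in strict order, from 10.38 ± 0.475 at vehicle through 10.75, 10.83 and 11.21 to 11.77 ± 0.126 at 64.1 and 12.38 ± 0.0917 at 641 mg/kg. Arrays at 6.41 mg/kg ran from 10.53 to 11.81 and those at 64.1 mg/kg from 11.57 to 11.92, so these groups overlapped, while the 641 mg/kg arrays lay apart at 12.27 to 12.49. The share was 0.695 (0.498 to 0.914), with an adjusted p of 0.0332 among the groups below 641 mg/kg.

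Abcc3, which exports conjugated compounds from hepatocytes into blood, had the lowest share among the called targets. Its vehicle arrays ran from 4.63 to 5.69 (median 5.19), and the medians at the 3 lowest doses were 5.28, 4.99 and 5.32. At 64.1 mg/kg the arrays ran from 5.59 to 6.67, which overlapped vehicle, and at 641 mg/kg from 7.03 to 8.44, which did not. The change was 1.72-fold at 64.1 and 5.26-fold at 641 mg/kg, a share of 0.326 (0.161 to 0.481), and the profile departed from a straight line (adjusted p = 8.42e-05). The efflux pump Abcb1a had a like share, 0.34 (0.11 to 0.549), at 1.24-fold and 1.89-fold.

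**Figure D2:**
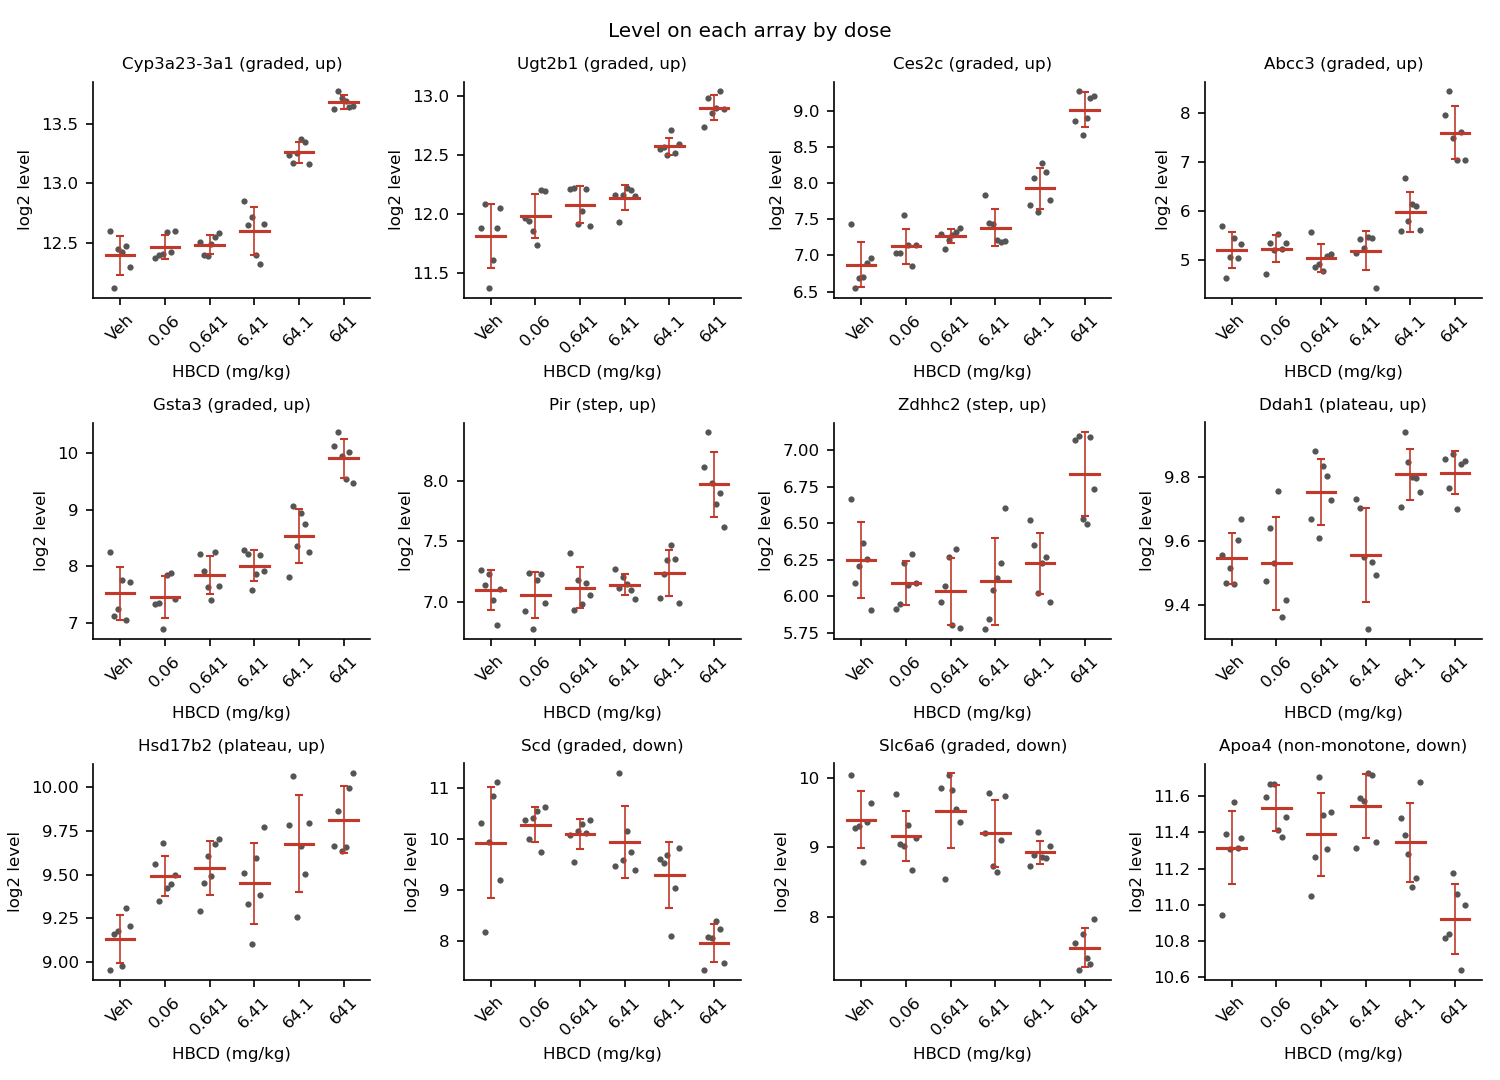
Log2 level on each array of 12 genes by dose in mg/kg, with the shape class in each panel title; grey points are arrays, red bars the group mean and red whiskers 1 SD (n = 6). Cyp3a23-3a1 and Ugt2b1 had all 64.1 mg/kg arrays above the vehicle arrays, whereas Abcc3, Gsta3 and Pir had such a separation at 641 mg/kg and not at 64.1 mg/kg.

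Hsd17b2, which oxidises estradiol and testosterone, differed from vehicle on its means from the lowest dose on. Its 6 arrays at 0.06 mg/kg, from 9.35 to 9.68, lay above all vehicle arrays, which ran from 8.96 to 9.31. The groups at 0.641, 6.41 and 64.1 mg/kg, with medians of 9.55, 9.45 and 9.72, each overlapped vehicle again, and the 641 mg/kg arrays, from 9.63 to 10.08, did not. Fold changes were 1.29, 1.33, 1.25, 1.46 and 1.61 from the lowest dose to the highest (adjusted p = 0.00324 among the 6 groups). The groups below 641 mg/kg did not differ by the test (adjusted p = 0.352). It was a plateau against the vehicle mean, with a share of 0.799 (0.524 to 1.14), and graded when the mean of the 4 lowest groups was the base.

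Among NRF2 targets, 13 of 22 measured members were called, all higher, against 1.29% of all symbols. Of these 10 were graded and 3 were steps, and 0 were called below 641 mg/kg. The 9 members that did not pass included Nqo1, a quinone reductase (2.08-fold at 641 mg/kg, adjusted p = 0.0974), Hmox1, heme oxygenase (0.945-fold), and the cystine transporter Slc7a11 (1.08-fold). The median difference over the 22 members was 0.10 at 64.1 and 0.51 at 641 mg/kg. Among the called members the median share was 0.292 and 1 of 13 exceeded 0.5, whereas it was 0.556 in the called CAR and PXR targets, with 11 of 15 over 0.5. The member over 0.5 was Ephx1, an epoxide hydrolase that is in both lists (share 0.556). The shares lay from 0.144 to 0.556 in the first list and from 0.326 to 0.799 in the second, so the lists overlapped, and the difference between them was not tested.

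Gsta3, a glutathione transferase, changed the most in this list. Vehicle arrays ran from 7.05 to 8.25 (median 7.48) and the medians at the next doses were 7.38, 7.78 and 8.05. At 64.1 mg/kg the arrays ran from 7.80 to 9.07 and overlapped vehicle, and at 641 mg/kg from 9.46 to 10.36 and did not. The change was 2.00-fold and then 5.23-fold, a share of 0.42 (0.261 to 0.574). Glutathione reductase Gsr had a share of 0.322 (0.147 to 0.484), the aldehyde reductase Akr7a3 one of 0.292 (0.0714 to 0.491), and Gclc, the catalytic subunit of the enzyme that starts glutathione synthesis, one of 0.282 (0.0318 to 0.502). All 4 departed from a straight line (adjusted p between 0.00193 and 0.0265).

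Pir, a redox-sensitive nuclear protein that was not in the list, had the largest change among the called steps. Its group medians were 7.12, 7.09, 7.10, 7.13 and 7.28 from vehicle to 64.1 mg/kg and 7.94 at 641 mg/kg. The 30 arrays up to 64.1 mg/kg ran from 6.78 to 7.47 and the 6 arrays at 641 mg/kg from 7.62 to 8.40, without overlap. The rise was 1.84-fold at the top dose, with a share of 0.161 (-0.0898 to 0.371) and an adjusted p of 0.000136 against 64.1 mg/kg.

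The upstream windows of Gsta3 and Pir are shown because both hold the core of the antioxidant response element, to which NRF2 binds, and the 2 genes differed in shape. Both are from RefSeq, build GRCr8, Gsta3 from the plus strand at chr9:31154932-31154988 and Pir from the minus strand at chrX:33851050-33851203, with the matches in capitals.
Gsta3: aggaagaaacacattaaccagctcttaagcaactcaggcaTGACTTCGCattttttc
Pir: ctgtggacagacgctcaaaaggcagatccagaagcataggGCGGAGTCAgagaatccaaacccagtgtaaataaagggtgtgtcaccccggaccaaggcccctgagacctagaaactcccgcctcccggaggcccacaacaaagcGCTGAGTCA
The letters searched were TGACNNNGC on both strands. They occurred in 3373 of 33469 windows (10.1%), in 13 of 79 graded upward genes with a window (16.5%), in 3 of 15 step upward genes (20.0%) and in 0 of 5 upward plateaus. Of graded downward genes 6 of 34 held them (17.6%), among them Scd and Slc6a6, and the shares were 14.8% of all called upward genes and 15.6% of all called downward genes. The graded genes with a match included Gclm and Txnrd1, and the step genes Ugdh and Gpd1l1. Among genes with a measured symbol and a window the share was 13%. With so few genes per class these shares are descriptions, and no test was run on them.

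The other steps among the called genes were small or low. Akr1b8, an aldose reductase relative, rose 1.72-fold at 641 mg/kg, but its mean level lay below the median of every array and 1 of 6 arrays stood at 5.41 while the next was at 4.30. Zdhhc2, a palmitoyl transferase, rose 1.5-fold, with arrays from 6.49 to 7.10 at the top dose that overlapped vehicle (5.91 to 6.67). Dip2a rose 1.33-fold, with a share of 0.0281 (-0.403 to 0.332), and its 641 mg/kg arrays (6.24 to 6.61) lay above all vehicle arrays. The annexin Anxa7 rose 1.46-fold with 1 of its 2 probe sets called, and its arrays at 641 mg/kg overlapped vehicle. The NRF2 targets Ugdh and Txn1, thioredoxin itself, rose 1.28-fold and 1.19-fold as steps.

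Abhd2, a lipid hydrolase, fell as a step, 1.49-fold at 641 mg/kg, with arrays from 7.92 to 8.40 against 8.40 to 8.95 at vehicle. Pkdcc, a secreted kinase, and Id4, an inhibitor of helix-loop-helix factors, were 1.35-fold lower at 641 mg/kg, and Id4 was called in 1 of its 4 probe sets and in 33 of 44 settings.

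**Figure D3:**
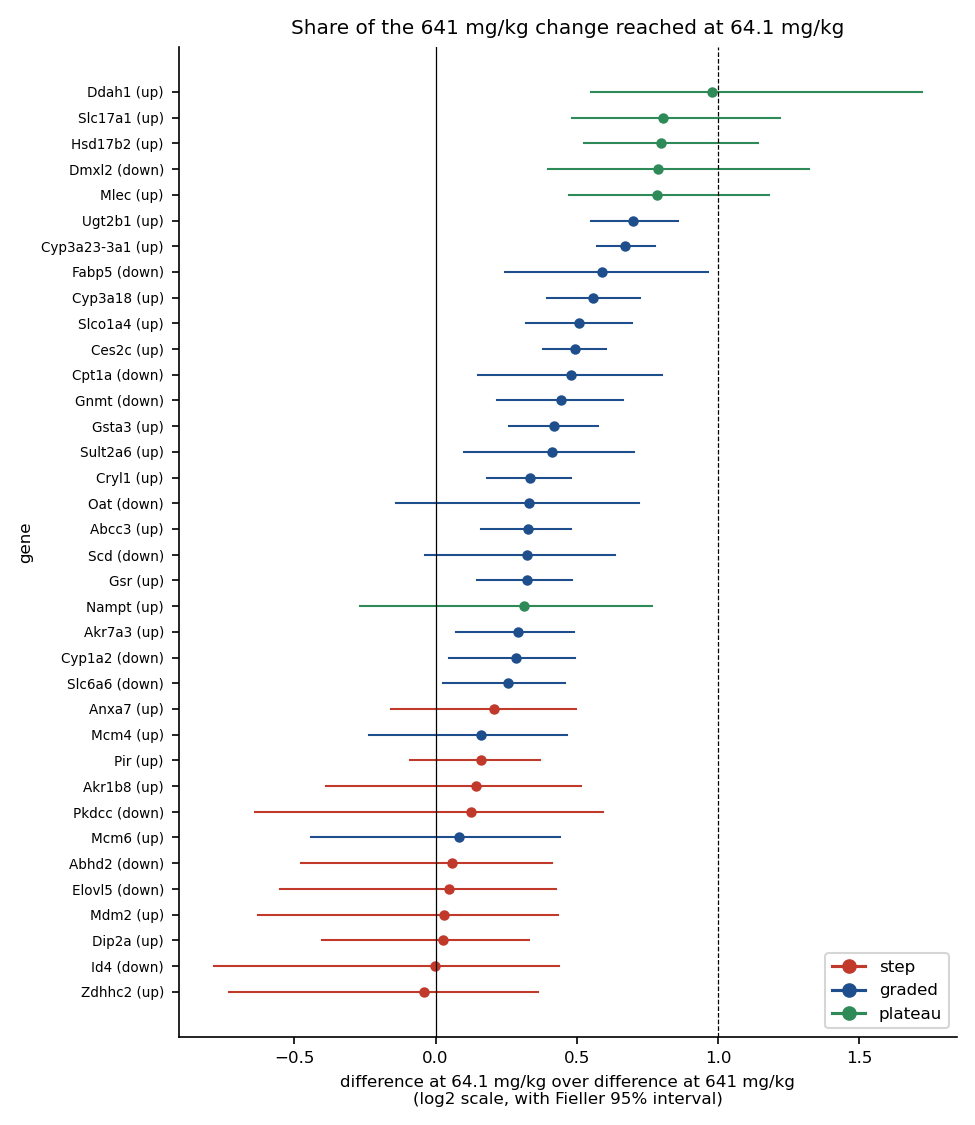
Share of the 641 mg/kg change that was reached at 64.1 mg/kg (x axis, ratio of log2 differences from vehicle) for 36 named genes called among the 6 groups, coloured by shape class; points are estimates and lines Fieller 95% intervals. Cyp3a23-3a1 (0.671) and Ugt2b1 (0.699) have intervals between 0 and 1, the intervals of steps reach 0, and those of all plateaus except Nampt reach 1 and not 0.

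Plateaus were few and small. Ddah1, which degrades an inhibitor of nitric oxide synthase, rose 1.20-fold at both upper doses, with arrays from 9.71 to 9.94 at 64.1 and from 9.70 to 9.87 at 641 mg/kg, all above the vehicle arrays (9.47 to 9.67). Its share was 0.979 (0.55 to 1.72). At 0.641 mg/kg its arrays ran from 9.61 to 9.88, but at 6.41 mg/kg they ran from 9.33 to 9.73, so the profile did not rise in order. Slc17a1, a phosphate and urate transporter, rose 1.23-fold and 1.29-fold with a share of 0.805 (0.483 to 1.22) and its means were in strict order. Mlec, a protein of the endoplasmic reticulum, had a share of 0.785 (0.474 to 1.18), with 1 of 2 probe sets called. Dmxl2 was the downward plateau, 1.39-fold lower at 641 mg/kg. Nampt, an enzyme of NAD synthesis, met the rule through 6.41 mg/kg (8.05 ± 0.319 against 7.66 ± 0.133 at vehicle) while its mean at 64.1 mg/kg was 7.79, and it was called in 30 of 44 settings.

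Graded falls included genes of lipid and amino acid metabolism. Scd, which makes monounsaturated fatty acids, varied widely at vehicle, from 8.19 to 11.12 (median 10.13). Its medians were 10.40, 10.15 and 9.67 at the 3 lowest doses, 9.57 at 64.1 and 8.08 at 641 mg/kg. Arrays at 641 mg/kg ran from 7.45 to 8.41 and overlapped the lowest vehicle array. It was 3.90-fold lower at the top dose, and the share of 0.324 (-0.0374 to 0.634) did not exclude 0. Of 18 measured genes of fatty acid and triglyceride synthesis, 3 were called, all lower, against 1.29% of all symbols called in either direction. They were Scd, the elongase Elovl5 as a step and the elongase Elovl2 as non-monotone. The median difference of this list was between 0.07 and 0.14 at the 4 lower doses and -0.01 at 641 mg/kg.

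Slc6a6, the taurine transporter, stayed between 8.54 and 10.03 on the 24 arrays up to 6.41 mg/kg. It ran from 8.73 to 9.22 at 64.1 mg/kg, which overlapped vehicle, and from 7.24 to 7.97 at 641 mg/kg, below all others. The share was 0.256 (0.0261 to 0.458) in this probe set and 0.292 in the second, close to the class limit of 0.25, and with the mean of the 4 lowest groups as base the first was a step. Cyp1a2, a monooxygenase driven by the AhR, was 1.38-fold lower at 641 mg/kg, with arrays from 12.13 to 12.46 against 12.64 to 12.81 at vehicle and a share of 0.285 (0.0479 to 0.495). The other 7 measured AhR targets were not called, where 1.29% of all symbols were.

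Among 20 measured genes of the urea cycle and amino acid catabolism, 4 were called, all lower and all graded, against 1.29% of all symbols called in either direction. Gnmt, which uses up methyl groups, was 1.71-fold lower at 641 mg/kg, with a share of 0.444 (0.216 to 0.665). Its arrays at 64.1 mg/kg (11.27 to 11.50) already lay below all vehicle arrays (11.54 to 12.19). The urea cycle enzyme Ass1 was 1.41-fold lower with a share of 0.573 (0.293 to 0.868). The aminotransferases Got1 and Oat were 1.29-fold and 1.79-fold lower, and Oat was called in 28 of 44 settings. Cpt1a, the entry step of mitochondrial fatty acid oxidation, was 1.49-fold lower with a share of 0.479 (0.15 to 0.802), in 1 of 2 probe sets. It was the 1 called member of 21 measured PPARalpha targets, against 1.29% of all symbols. Fabp5, a fatty acid binding protein, was 1.82-fold lower, with a share of 0.589 (0.245 to 0.964). Its arrays at both upper doses overlapped those of vehicle.

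Of 19 measured bile acid genes, 5 were called higher and 1 lower, against 1.29% of all symbols called in either direction. All were classed as graded. Beyond the CAR and PXR targets, the uptake carrier Slco1a1 rose 1.27-fold with a share of 0.669 (0.422 to 0.946) and the reductase Akr1d1 rose 1.35-fold with a share of 0.492 (0.29 to 0.692). Slc27a5, which activates bile acids, was 1.27-fold lower, with a share of 0.125 (-0.377 to 0.477). It was classed as graded through its mean at 0.06 mg/kg, 0.941-fold of vehicle. Of 12 genes for thyroid hormone handling and response, 3 were called higher and 1 lower, against the same 1.29%, with shares from 0.48 to 0.699. Slco1a4 and Ugt2b1 among them are in the CAR and PXR list too. The other called genes were the sulfotransferases Sult1b1, 1.19-fold higher, and Sult1a1, 1.20-fold lower. Of 12 sex-biased liver genes, not split by sex of higher level, 5 were called higher and 1 lower, against the same 1.29%. Cyp3a18 and Cyp3a2 among them are in the CAR and PXR list. Sult2a6 rose 3.46-fold with a share of 0.412 (0.1 to 0.703), Sult2a2 rose 1.25-fold as a step at a mean level of 2.50 at vehicle, low on the scale, and the oxidase Hao2 was 1.27-fold lower.

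Of 28 measured cell cycle genes 2 were called, against 1.29% of all symbols. They were Mcm4 (1.38-fold higher) and Mcm6 (1.56-fold higher), both subunits of the replicative helicase. The median difference of the list was 0.11, 0.14, 0.09, 0.10 and 0.35 from the lowest dose to the highest. Mcm6 was classed as graded through its mean at 0.06 mg/kg (5.42 ± 0.318 against 5.17 ± 0.196 at vehicle), since its share at 64.1 mg/kg was 0.0839 (-0.442 to 0.441). It was called in 35 of 43 settings. With the mean of the 4 lowest groups as base both genes were steps. Mdm2, a p53 target, rose 1.30-fold as a step, 1 of 13 measured members of its list to be called, and was called in 14 of 44 settings. Its second called probe set, at a like mean level (7.46 against 7.47), was graded, with a share of 0.145. At 641 mg/kg it was 0.548 higher on the log2 scale (limma adjusted p = 0.000314 among the 6 groups). The first was 0.381 higher (adjusted p = 0.0477), and the count of settings refers to the first.

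Lists without a called member were cholesterol synthesis (18 measured), immediate early genes (15), gluconeogenesis and glycolysis (12), endoplasmic reticulum stress (21), proteasome subunits (30), the acute phase (22) and the circadian clock (17). Only 1.29% of all symbols were called, so 0 calls in lists of these sizes do not set them apart from other genes. Of the proteasome subunits 4 passed the rising trend test (1.52% of all symbols did), among them Psmb3, whose mean was 10.05 ± 0.0967 at vehicle and 10.33 ± 0.0667 at 641 mg/kg. Cholesterol synthesis had median differences of 0.10, 0.19, 0.20, 0.11 and 0.19 from the lowest dose to the highest, with no order by dose. Myc, an immediate early gene, stood at 7.36 ± 0.635 at vehicle and 8.56 ± 0.5 at 641 mg/kg (adjusted p = 0.313 over the 6 groups).

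**Figure D4:**
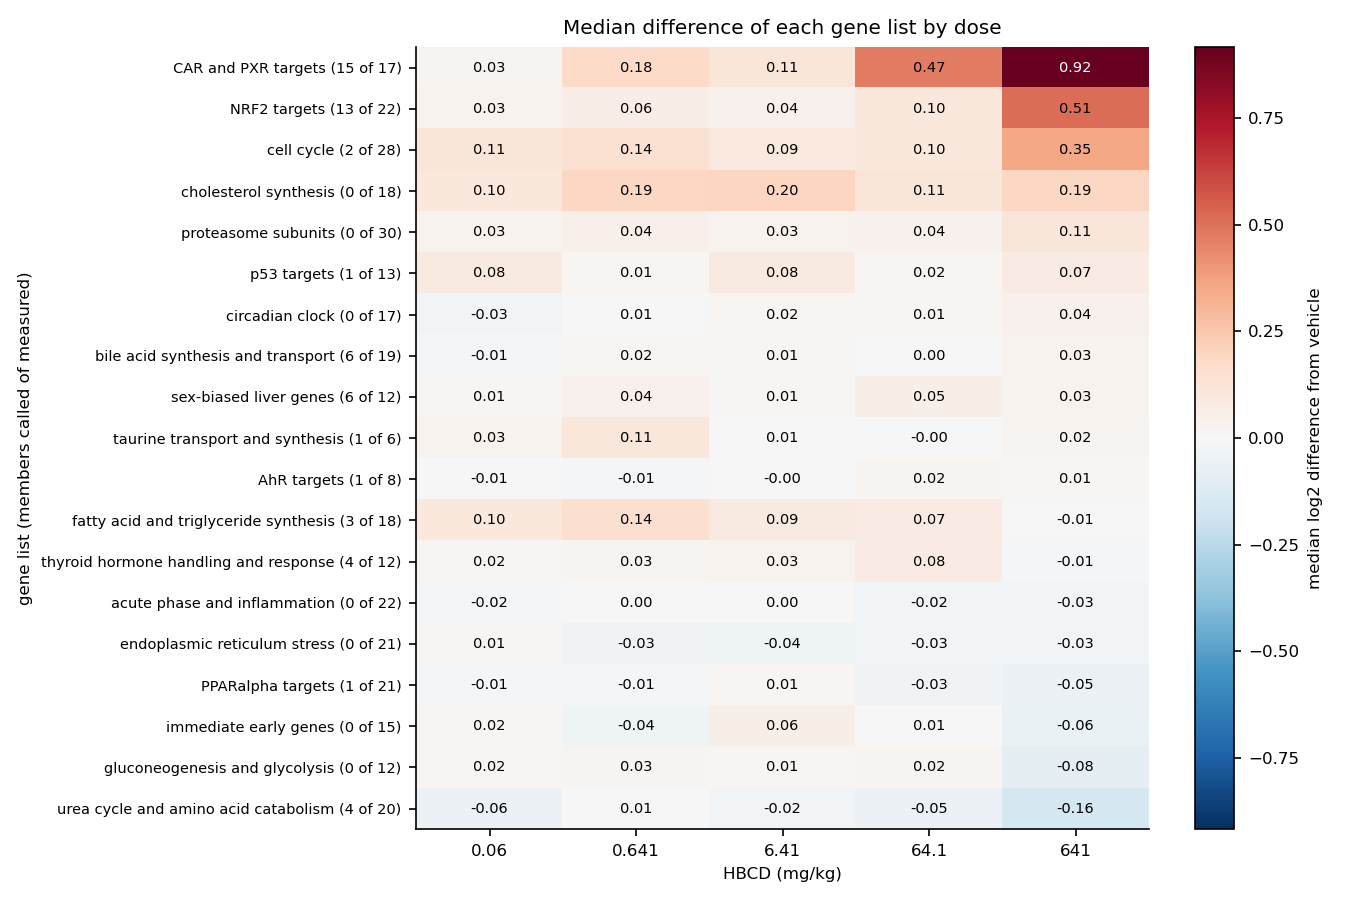
Median log2 difference from vehicle of the measured members of each of 19 function lists (rows, with members called of members measured) at each HBCD dose in mg/kg (columns), red for higher and blue for lower. CAR and PXR targets reached 0.47 at 64.1 and 0.92 at 641 mg/kg, NRF2 targets 0.10 and 0.51, and cholesterol synthesis lay between 0.10 and 0.20 at every dose.

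No probe set passed the test for an interior peak or trough. An interior peak or trough asks that a middle dose differs from both vehicle and 641 mg/kg in the same direction. It was called for 0 of 31042 probe sets by limma, with 167 at an unadjusted p under 0.05, also less than a share of 0.05. Among the 19 called probe sets of this class, 12 had their largest change at 641 mg/kg and met the rule through a small opposite shift at a lower dose. Apoa4, an apolipoprotein, was of this kind, with means of 11.32 at vehicle, between 11.34 and 11.54 at the 4 lower doses and 10.92 at 641 mg/kg. Abhd1, a hydrolase, stood at 8.08 at vehicle, 8.30 at 0.641 mg/kg and 7.75 at 641 mg/kg. Gstm3, a glutathione transferase, stood at 5.94 at vehicle, 5.70 at 0.06 mg/kg and 6.34 at 641 mg/kg. With the mean of the 4 lowest groups as base, Apoa4 and Abhd1 were steps and Gstm3 was graded.

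Cxcl9, a chemokine, moved up and down, with means of 6.77, 6.78, 6.5, 7.07, 6.45 and 7.30 from vehicle to the top dose, and was called in 13 of 44 settings. The macrophage marker level was also lowest at 64.1 mg/kg, and its part in this profile was not tested. Coro2a and Smtnl2 rose 1.25-fold and 1.22-fold at 641 mg/kg after lower means at all 4 lower doses. Dcx peaked at 64.1 mg/kg (3.30 ± 0.166 against 3.04 ± 0.116 at vehicle), at a level below the median of every array. The genes ranked first by the interior test were Cyp2b12 (2.42 ± 0.107 at vehicle, 2.73 ± 0.213 at 6.41 and 2.44 ± 0.124 at 641 mg/kg), Tmem140 (9.83 ± 0.21, 10.13 ± 0.0847 at 0.641 mg/kg and 9.85 ± 0.0705) and Ccl4 (5.41 ± 0.129, 5.10 ± 0.0544 at 0.641 mg/kg and 5.39 ± 0.194). None of these passed after adjustment.

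Probe sets of the same gene did not always pass together. Of 14 named called genes with 2 or more probe sets, 11 had 1 called: Abhd1, Anxa7, Coro2a, Cpt1a, Cxcl9, Dcx, Elovl5, Mlec, Nampt and Smtnl2, with 1 of 2 each, and Id4, with 1 of 4. Over all genes, 14 had at least 2 called probe sets, which were chosen by the same test, and these fell into the same class in 11 genes and moved in the same direction in 13. The median difference of their shares was 0.0533. The exception in direction was Glul, glutamine synthetase, with 2 non-monotone probe sets that were both lower at 641 mg/kg but whose largest changes had opposite signs.

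The probe set with the largest difference in means, 1368718_at, has no symbol in the annotation and was named after its values were seen. Its level lay between 3.63 and 4.13 on 6 arrays and at 7.30 or higher on the other 30. At vehicle the 6 arrays stood at 3.63, 3.92, 7.74, 7.79, 8.36 and 8.51. At 6.41 mg/kg 3 arrays stood between 3.71 and 4.13 and 3 between 8.18 and 9.42. At 64.1 mg/kg 1 array stood at 3.79 and the other 5 between 10.20 and 11.02, and at 641 mg/kg all 6 stood between 11.28 and 12.48. The difference in means at 641 mg/kg was 5.13 on the log2 scale (adjusted p = 0.00769 among the 6 groups), and the means at 6.41 and 64.1 mg/kg, 6.24 and 9.46, each lay between 2 clusters of arrays where no array stood. The class, graded, therefore describes means and not the arrays.

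**Figure D5:**
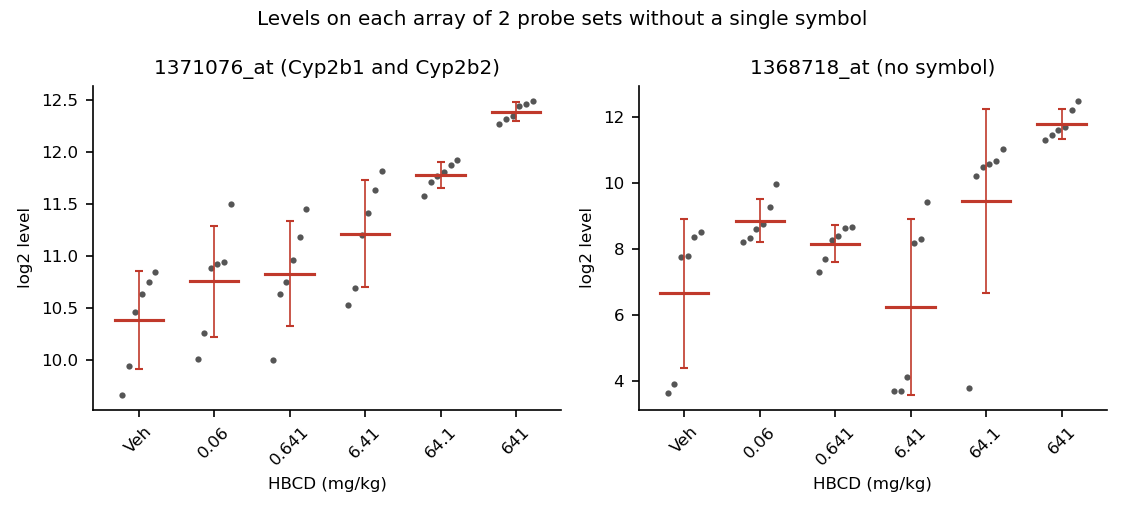
Log2 level on each array by HBCD dose in mg/kg for a probe set shared by Cyp2b1 and Cyp2b2 and for 1368718_at, which has no symbol; grey points are arrays, red bars group means and whiskers 1 SD (n = 6). The means of the first rise in strict order from 10.38 to 12.38, and 6 arrays of the second stand between 3.63 and 4.13, apart from the rest.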

How the data were processed

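Transcripts were measured on 36 Affymetrix arrays. Per the submitters' processing notes, the authors used affy and RMA; their versions are not given in the sources used here. Deposited values are log2 levels. They ran from 1.526 to 14.588, with array medians from 4.829 to 4.899, and were not normalized again. Without detection calls, the 6 arrays of a group set the precision. Of 31099 probe sets, 57 controls were left out. Symbols came from the platform annotation and a RefSeq gene table of build GRCr8: 20826 probe sets had 1 symbol, 436 several and 9780 none. Each of 14217 symbols was represented by its probe set with the highest mean.

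One fit with limma 3.58.1 in R 4.3.3, with 1 mean per group, gave all moderated tests, two-sided, with Benjamini-Hochberg adjustment over 31042 probe sets. The series design names R/maanova, which was not used. The interior test took the larger of both p-values per dose, times 4. No identical arrays were found (correlation within groups 0.9912 to 0.9965). The fit and class rule were run on simulated profiles, all with larger changes than the median of 0.392 (log2 scale, 641 mg/kg) in the called probe sets. Class recovery for changes of that size was therefore not checked.

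Named genes were up to 5 upward and 3 downward per class, up to 2 called members per list or else the member with the smallest p, the 3 with the smallest interior p, and 10 set genes. All other genes were chosen after their values were seen. The groups, members, lists and tests were chosen with earlier results of these data known.

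Alternatives covered the replicate block, centring, quantile normalization, a filter on the highest group mean (at least 6), variance models, array weights and means over probe sets. They also covered class limits, the base, the set of probe sets, other ways of classing, the dose scale, a stricter threshold and each array left out.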

Additional observations from a re-analysis of the deposited data

Results flagged for a closer look

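In the named genes and the 2 probe sets without a single symbol, 24 of 396 groups (6.06%) held an array that stood far from the other 5 by Dixon's rule, which chance alone gives in about 5% of groups. Values are log2 levels of the array, followed by the nearest other array of its group.

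Several of these lie in genes whose shape was described. Abcc3 stood at 4.43 on replicate 6 of 6.41 mg/kg, next to 5.14. Akr1b8 stood at 5.41 on replicate 1 of 641 mg/kg, next to 4.30. Ugt2b1 stood at 11.93 on replicate 2 of 6.41 mg/kg, next to 12.16, and Scd at 9.55 on replicate 2 of 0.641 mg/kg, next to 10.09. Dip2a had such an array in 3 groups, at 5.90 on replicate 2 of 0.641 mg/kg (next 6.10), at 5.92 on replicate 6 of 64.1 mg/kg (next 6.09) and at 6.24 on replicate 3 of 641 mg/kg (next 6.51). Mdm2 stood at 7.19 on replicate 6 of 64.1 mg/kg (next 7.39) and at 8.27 on replicate 2 of 641 mg/kg (next 7.79). Elovl5 stood at 12.20 on replicate 6 of 64.1 mg/kg, next to 12.10.

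At the lower doses, replicate 3 of 0.06 mg/kg stood low in Oat (9.27, next 10.06), Pkdcc (7.22, next 7.95) and the macrophage marker Csf1r (7.19, next 7.56). Replicate 4 of 0.641 mg/kg stood low in Coro2a (4.29, next 4.53) and high in the clock gene Npas2 (7.79, next 7.46). Replicate 4 of vehicle stood high in Cxcl9 (7.39, next 6.79), Csf1r (7.83, next 7.67) and the B cell marker Cd22 (5.78, next 5.64), and the stellate cell marker Pdgfrb was high on replicate 5 of vehicle (5.63, next 5.30). Cd22 was high on replicate 4 of 6.41 mg/kg (5.88, next 5.51).

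At the upper doses, Ccl4 was low on replicate 4 of 64.1 mg/kg (5.05, next 5.22), Psmb3 on replicate 3 of 641 mg/kg (10.20, next 10.33) and Tmem140 on replicate 2 of 641 mg/kg (9.71, next 9.84). The widest gap was that of probe set 1368718_at on replicate 4 of 64.1 mg/kg, at 3.79 against 10.20 for the next array.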

How the results depend on the processing

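Of 2804 gene tests, 2643 kept their side of the threshold, 152 lost the call, 9 gained one and 0 reversed. The labels do not say what the replicate numbers stand for. Residuals of same-numbered arrays correlated at 0.0179 on average, from -0.252 to 0.321 (14 of 90 pairs over 0.1). The average was -0.00356 for arrays of different groups with different numbers. These averages cannot tell whether the numbers mark a batch. The replicate block gave 231 calls among the 6 groups, 5 below 641 mg/kg, 380 trends and a median share of 0.368. With probe sets limited to a group mean of at least 6, fewer were tested, and 374 were called among the 6 groups, 15 below 641 mg/kg and 653 trends (425 rising, 228 falling), in classes of 47 steps, 271 graded, 24 plateaus and 32 non-monotone. Means over the probe sets of a symbol gave 49 differences between 641 and 64.1 mg/kg. An adjusted p under 0.01 left 130 calls, and a trend over dose in mg/kg called 786.

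Class sizes depended on the class rule. Limits of 0.2 and 0.8 gave 19 steps and 7 plateaus, and limits of 1/3 and 2/3 gave 73 and 24. With the 4 lowest groups as base there were 53 steps and 11 non-monotone profiles, the nearest template gave 71 and 3, and the 64.1 mg/kg share alone gave 46 steps. The set called for 641 mg/kg against vehicle held 47 steps, 412 graded, 50 plateaus and 2 non-monotone. Of the 178 graded profiles, 124 to 178 kept their class under the other limits, bases and rules, and of the 19 non-monotone 3 to 19.

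Leaving out 1 array in turn gave 154 to 258 calls among the 6 groups, 3 to 10 below 641 mg/kg, 0 to 0 below 64.1 mg/kg, 316 to 428 trends (219 to 301 rising, 91 to 139 falling), 15 to 32 departures, 32 to 95 differences between 641 and 64.1 mg/kg, 1 to 2 between 64.1 and 6.41 mg/kg, 0 to 0 at the lower steps and 0 to 0 interior peaks or troughs. Classes held 15 to 35 steps, 120 to 196 graded, 8 to 18 plateaus and 5 to 25 non-monotone, and the median share ran from 0.353 to 0.437. The lowest of 154, 15, 32, 15 and 5 were those without replicate 2 of 641 mg/kg; the extremes of 3 and 10 below 641 mg/kg were those without replicate 4 of 64.1 mg/kg and replicate 1 of vehicle, and 8 plateaus were those without replicate 2 of 64.1 mg/kg, and 91 falling trends were those without replicate 5 of 641 mg/kg. An alternative chosen after seeing the data left out replicates 2, 3 and 4 of 64.1 mg/kg together. It gave 220 calls among the 6 groups and a median share of 0.333, but 1 call below 641 mg/kg, 274 trends (186 rising, 88 falling) and 25 differences between 641 and 64.1 mg/kg. That alternative also left fewer arrays at 64.1 mg/kg, and the cause of these shifts was not tested. With 6 arrays a group, small changes at the lower doses may be missed.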

Other observations

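Some probe sets split the arrays into separate clusters. Whether membership is related to dose was not tested. A search chosen after the data were seen took probe sets in which a gap of at least 2 on the log2 scale divided the 36 arrays, with 2 or more arrays on each side. It found 7. Both probe sets of Ugt2b, a glucuronosyltransferase, were low on the same 3 arrays, replicate 3 of vehicle, replicate 4 of 0.06 mg/kg and replicate 6 of 0.641 mg/kg. In 1387825_at these stood between 5.02 and 6.77 and the other 33 arrays between 12.50 and 13.08. Its group means, 11.51, 11.79, 11.56, 12.74, 12.91 and 12.89 from vehicle to 641 mg/kg, had the form of a plateau from 6.41 mg/kg on, with an adjusted p of 0.923 by limma. The profile of the means was set by those 3 arrays.

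Abhd3, a phospholipase, was high on 6 arrays, at 7.22 or above, and at 3.48 or below on the other 30. RT1-Ba, a class II histocompatibility gene, stood at or below 4.62 on 2 arrays, replicate 6 of vehicle and replicate 6 of 64.1 mg/kg, and at or above 8.04 on the other 34. The probe set 1370428_x_at, without a single symbol, stood at or below 4.71 on 16 arrays and at or above 9.94 on 20. The probe set 1393108_at stood at or below 5.01 on 5 arrays and at or above 8.43 on 31. The remaining one was 1368718_at.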
